A study of Mus musculus with 2 samples.

Results

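Oxidative phosphorylation was described here through the transcripts of its 5 enzyme complexes, encoded by nuclear and by mitochondrial DNA. Members were taken by name: every gene beginning with mt-, Uqcr, Atp5 or Cox4 to Cox8, the numbered Ndufa, Ndufb, Ndufc, Ndufs and Ndufv genes with Ndufab1, and Sdha, Sdhb, Sdhc and Sdhd. These names matched 97 of the 17244 genes listed in either table, 96 in each table. Both tables listed 95 of them, 82 nuclear and 13 mitochondrially encoded, among 15366 genes listed in both. Cox4i2, a lung and hypoxia isoform, was listed for E12.5 only (4 UMIs) and Cox6a2, a heart and muscle isoform, for E13.5 only (5 UMIs). The names also took in 3 nuclear genes that are not structural subunits: Cox7a2l, a factor that joins respiratory complexes into supercomplexes, Atp5sl, a complex I assembly factor, and its relative Atp5s.

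The cells were male germ cells of CD1 mouse embryos, an outbred strain, at E12.5 and E13.5. FACS selected cells carrying Oct4-GFP, whose fluorescence reports the germ cell and pluripotency factor Pou5f1. They were given no treatment that the labels name. Each stage was 1 library of 10x v2 chemistry, a droplet assay that counts molecules near their 3′ ends by unique molecular identifier (UMI). Stage and library therefore cannot be told apart, no difference between them could be tested, and every interval below is a 95% interval for counting error alone. The labels do not say how many embryos were pooled.

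Respiratory complexes I to IV pass electrons from NADH and succinate to oxygen. Complexes I, III and IV pump protons across the inner mitochondrial membrane as they do so, complex II does not, and complex V, the ATP synthase, uses the returning protons to make ATP. Complex II is encoded wholly in the nucleus, whereas the other complexes combine nuclear subunits, imported from the cytosol, with subunits translated inside the mitochondrion from its own DNA. Subunits from both genomes must meet for complexes I, III, IV and V to be assembled. Several nuclear subunits of complex IV, cytochrome c oxidase, exist as isoforms used by particular tissues, including the testis.

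Germ-like cells numbered 2495 in the E12.5 library and 2552 in that of E13.5, at a median depth of 23483 and 21842.5 UMIs. All 17 germ markers were seen in them, at a summed 8288 and 8744 CPM (UMIs per 1000000 UMIs summed over germ-like cells). Markers of other types had low sums: 17.2 and 18.5 CPM over 10 Sertoli markers, 97.1 and 36.9 CPM over 6 listed endothelial markers, 19.3 and 35.1 CPM over 8 listed interstitial markers, and 0.285 and 23.1 CPM over 9 erythroid markers, with the interstitial markers Dcn and Col1a2 at 0 in both. The part of these differences in the results was not tested. The libraries shared 24 barcodes, 9 of them among germ-like cells.

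The promoters of 5 nuclear members are shown because these genes carry the contrasts described below: Cox7a1 and Cox7a2, isoforms of the same complex IV subunit with different ratios, Atp5k and Cox8a, lower at E13.5, and Ndufv3, higher at E13.5. Each runs from 250 bases before to 50 bases after the RefSeq start in GRCm38.p6, 5′ to 3′ on the gene's strand. They lie at chr7:30183921-30184220 (Cox7a1, plus strand), chr9:79759804-79760103 (Cox7a2, minus), chr5:108434350-108434649 (Atp5k, minus), chr19:7217567-7217866 (Cox8a, minus) and chr17:31519865-31520164 (Ndufv3, plus). Capitals mark matches on either strand, a match on the opposite strand appearing as its reverse complement, to 3 elements known from nuclear mitochondrial genes: the NRF1 core CGCATGCG, the ETS element CCGGAAG and the YY1 element AAGATGGCG.
Cox7a1: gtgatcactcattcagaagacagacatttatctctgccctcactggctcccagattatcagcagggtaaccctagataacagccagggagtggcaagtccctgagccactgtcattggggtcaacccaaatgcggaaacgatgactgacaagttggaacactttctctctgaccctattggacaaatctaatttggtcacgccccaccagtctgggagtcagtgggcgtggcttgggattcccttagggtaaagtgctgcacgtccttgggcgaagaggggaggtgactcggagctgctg
Cox7a2: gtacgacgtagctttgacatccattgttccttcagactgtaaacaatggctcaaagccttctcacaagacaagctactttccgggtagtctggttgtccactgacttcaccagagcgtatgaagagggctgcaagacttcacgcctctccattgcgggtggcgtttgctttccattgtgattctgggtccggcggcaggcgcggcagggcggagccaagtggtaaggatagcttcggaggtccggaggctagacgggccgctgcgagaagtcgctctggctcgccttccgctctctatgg
Atp5k: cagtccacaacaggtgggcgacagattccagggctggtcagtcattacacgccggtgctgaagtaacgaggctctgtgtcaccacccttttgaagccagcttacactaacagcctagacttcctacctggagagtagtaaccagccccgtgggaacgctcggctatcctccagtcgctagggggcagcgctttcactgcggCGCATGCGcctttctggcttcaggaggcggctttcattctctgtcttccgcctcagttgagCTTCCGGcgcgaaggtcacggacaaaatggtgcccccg
Cox8a: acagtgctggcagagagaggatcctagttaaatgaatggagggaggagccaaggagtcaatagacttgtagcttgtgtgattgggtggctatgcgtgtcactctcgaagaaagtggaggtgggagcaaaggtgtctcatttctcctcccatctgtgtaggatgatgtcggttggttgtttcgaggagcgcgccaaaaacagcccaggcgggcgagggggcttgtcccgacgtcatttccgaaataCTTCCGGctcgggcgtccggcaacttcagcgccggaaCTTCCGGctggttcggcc
Ndufv3: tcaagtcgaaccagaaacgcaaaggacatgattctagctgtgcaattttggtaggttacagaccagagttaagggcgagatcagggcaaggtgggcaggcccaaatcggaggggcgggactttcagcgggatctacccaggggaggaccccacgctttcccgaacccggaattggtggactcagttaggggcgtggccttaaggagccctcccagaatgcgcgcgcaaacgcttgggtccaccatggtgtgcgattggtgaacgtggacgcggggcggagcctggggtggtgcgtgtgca

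The Atp5k promoter held 1 NRF1 and 1 ETS match, and the Cox8a promoter held 2 ETS matches. Those of Cox7a1, Cox7a2 and Ndufv3 had none of these letters in the window. Promoters were matched for 69 of the 84 nuclear members. The NRF1 core was in 9 of them (13.0%), against 5.93% of 5615 expressed genes and 2.07% of all 27025 genes with a promoter. The YY1 element was in 8 (11.6%, against 4.90% and 1.64%) and the ETS element in 16 (23.2%, against 25.8% and 9.93%). At least 1 element was in 27 members (39.1%, against 33.8% and 12.8%), and no matches to different elements overlapped in this table. These are matches of letters and not binding sites.

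The stages were first compared in the transcripts of each genome. Nuclear members took 3.53% of germ-like UMIs at E12.5 and 3.27% at E13.5, a ratio of 0.928 (0.926 to 0.929). Mitochondrially encoded members took 3.90% and 4.69%, a ratio of 1.20 (1.20 to 1.21). The genomes thus differed in opposite directions, and the germ-like cells held 1.10 mitochondrially encoded UMIs per nuclear member UMI at E12.5 (1.10 to 1.11) and 1.43 at E13.5 (1.43 to 1.44). The filter on cells uses the mitochondrial share itself: with at least 2000 genes and under 5% mitochondrial UMIs, which kept 2270 cells at E12.5 and 1595 at E13.5, the log2 ratio of the mitochondrially encoded sum was 0.14 in place of 0.27.

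**Figure D1:**
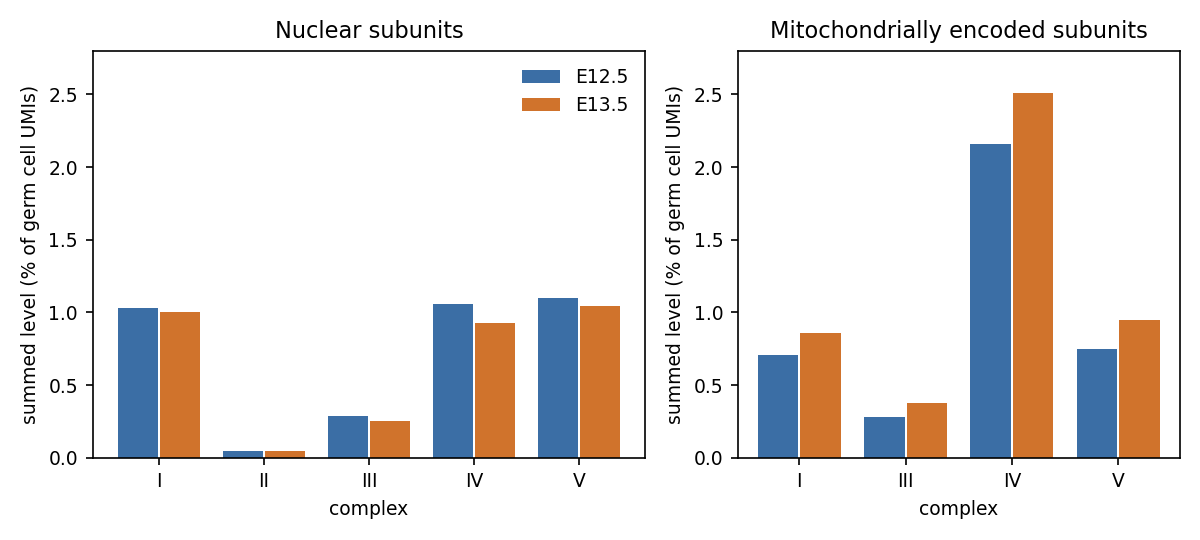
Bars give the summed level of members of each complex as percent of all UMIs in germ-like cells, nuclear genes at left and mitochondrially encoded genes at right, for E12.5 (blue) and E13.5 (orange), 1 library each. Nuclear sums of complexes I, III, IV and V are lower at E13.5 and all 4 mitochondrially encoded sums are higher.

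Of members at a mean of 10 CPM or more over both libraries, 78 were nuclear and 12 mitochondrially encoded. Among the nuclear members, 18 were higher and 60 lower at E13.5, against 47.3% higher and 52.7% lower of 6898 genes at that level. Their median log2 ratio was -0.11, against -0.021 over all genes, whose middle 90% ran from -0.78 to 0.71. All 12 mitochondrially encoded members were higher, with a median of 0.16. At least 1.5-fold, used as a class of size, 0 members were higher and 2 were lower (Cox7a1 and Atp5k), against 7.12% higher and 8.58% lower of all genes. At 5/4-fold, 4 members were higher (Ndufv3, mt-Nd1, mt-Cytb and mt-Atp6) and 8 lower, against 17.5% and 19.9% of all genes. The differences were thus small in nearly every member. As for scaling, a denominator without mitochondrially encoded, ribosomal protein and the 50 most abundant genes shifted the median of all genes by 0.046. It left 56 of 80 nuclear members lower, while 53.2% of 8087 genes at the level were higher (median log2 ratio 0.025). With that denominator the log2 ratio of the nuclear sum was -0.067 in place of -0.11, that of nuclear complex I -0.0041 in place of -0.046, and those of nuclear complexes V and II -0.036 and 0.10 in place of -0.077 and 0.063.

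**Figure D2:**
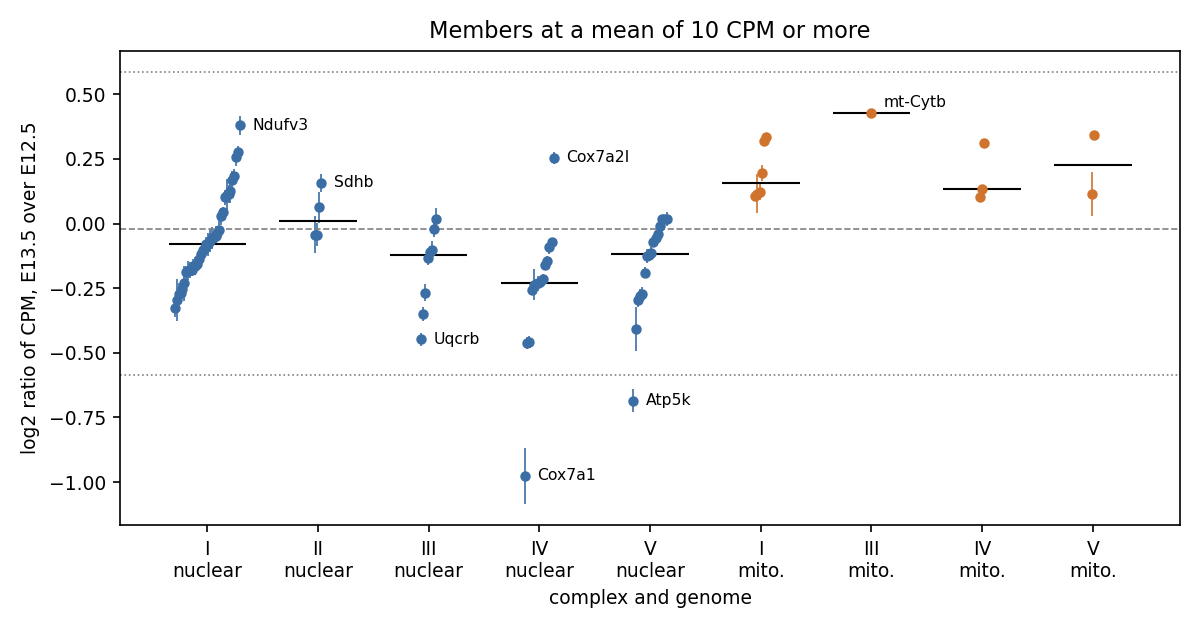
Each point is 1 member at a mean of 10 CPM or more, placed by its log2 ratio of CPM, E13.5 over E12.5, with its counting interval; black lines are medians, the dashed line is the median of all genes (-0.021) and dotted lines mark 1.5-fold. Cox7a1 and Atp5k lie past 1.5-fold lower and all mitochondrially encoded members lie above 0.

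Complex I, the NADH dehydrogenase, differed little in its nuclear sum, 10335 CPM in the E12.5 library and 10013 CPM in the E13.5 library (ratio 0.969, 0.965 to 0.972), and 11 of its 36 nuclear members were higher. The 7 nuclear core subunits, which include those that carry the flavin and iron-sulphur clusters or bind quinone, summed to a ratio of 1.02 (1.01 to 1.03). The 29 accessory subunits, which stabilise the enzyme, summed to 0.960 (0.956 to 0.964). Ndufv3, an accessory subunit beside the flavin site, had the highest ratio of the nuclear members at the level: 166 CPM in the earlier and 215 CPM in the later library, a ratio of 1.30 (1.27 to 1.34). Ndufv1, the core subunit that binds the flavin, was at 224 and 268 CPM, and accessory Ndufa7 at 465 and 563 CPM, both higher at E13.5 (chosen after their values were seen). Ndufb7, an accessory subunit of the membrane arm, had the lowest log2 ratio of the complex, -0.33, with 271 and 216 CPM. Ndufb9, its nuclear member with the most UMIs, was at 646 and 666 CPM.

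Complex II, succinate dehydrogenase, was the 1 complex with a higher nuclear sum, 461 and 482 CPM (ratio 1.04, 1.03 to 1.06). Sdhb, the iron-sulphur subunit, was at 200.1 and 223 CPM (ratio 1.11, 1.09 to 1.14). The counting intervals of Sdha, the flavoprotein, and Sdhd, a membrane anchor, included 1, at ratios of 0.971 (0.941 to 1.002) and 0.971 (0.924 to 1.02). The other anchor, Sdhc, was at 70.6 and 73.7 CPM.

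Complex III, which passes electrons from quinol to cytochrome c, had a nuclear sum of 2886 and 2506 CPM (ratio 0.868, 0.862 to 0.874), and 7 of 8 members were lower. The core proteins and the iron-sulphur protein summed to a ratio of 0.973 (0.959 to 0.986), and the 5 small subunits to 0.835 (0.828 to 0.842). The small subunit Uqcrb, which contacts the quinone site, was at 567 and 415 CPM, a ratio of 0.733 (0.721 to 0.745). Uqcrc2, a core protein, was the 1 higher member, at 158 and 160 CPM, with a counting interval that included 1 (ratio 1.01, 0.984 to 1.04). Uqcrh, the hinge protein with the most UMIs, was at 564 and 523 CPM. Among these 8 members the lower sum thus lay mostly in the small subunits. Cyc1, the cytochrome c1 subunit of complex III that the naming rule leaves out, had a ratio of 0.834 (0.819 to 0.849), close to theirs.

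Complex IV, cytochrome c oxidase, had a nuclear sum of 1.06% of UMIs at E12.5 and 0.929% at E13.5 (ratio 0.878, 0.875 to 0.881), and 13 of its 14 members at the level were lower. The exception was the supercomplex factor Cox7a2l, at 474 and 566 CPM (ratio 1.19). Cox4i1, the ubiquitous form of subunit 4, was at 1934 and 1729 CPM. Cox5b, which binds zinc, and Cox8a, the ubiquitous form of subunit 8, had log2 ratios of -0.46 each (Cox5b chosen after its value was seen), with 563 and 409 CPM for Cox5b and 731 and 532 CPM for Cox8a. Cox7a2, Cox6b1 and Cox7b, also ubiquitous forms, had log2 ratios of -0.23, -0.23 and -0.21. Ndufa4, a former complex I protein now placed in complex IV, was at 726 and 657 CPM, and Cox6a1 at 463 and 434 CPM.

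Cox7a1, the heart and muscle form of subunit 7a, had the lowest ratio of the members at the level. Its 2088 UMIs at E12.5 came to 34.98 CPM, its 1043 UMIs at E13.5 to 17.8 CPM, a ratio of 0.509 (0.472 to 0.548). As Cox7a2 was also lower, the share of Cox7a1 among Cox7a1 and Cox7a2 UMIs was 3.89% (3.73 to 4.06) and 2.37% (2.23 to 2.51). In cells thinned to 14500 UMIs, 37.9% had a Cox7a1 UMI at E12.5 and 21.9% at E13.5 (53.6% and 30.3% unthinned). At 2000 UMIs per cell these shares were 6.26% and 3.84%, against 0 of 29 Sertoli-like cells, which allows up to 11.9% (exact binomial bound), so the background from free RNA was not resolved at this number of cells. Summed over all UMIs of both stages, the Sertoli-like cells had 3 Cox7a1 UMIs, or 8.19 CPM (1.69 to 23.9). That interval lay below the germ-like level of E12.5 and included that of E13.5, but 25 of the 29 cells came from the E13.5 library. By stage the Sertoli-like level was 13.6 CPM (1 UMI, 0.345 to 75.9) at E12.5 and 6.82 CPM (2 UMIs, 0.827 to 24.7) at E13.5. Each interval included the germ-like level of its own library, so neither level was separated from background.

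Isoforms linked to the testis took minor shares of their families. Cox6b2 made up 18.3% of Cox6b UMIs at both stages (17.9 to 18.8 at E12.5 and 17.8 to 18.8 at E13.5), with 85.1 and 72.3 CPM. It had a UMI in 62.5% and 62.4% of thinned cells (77.3% and 74.7% unthinned), and at 2000 UMIs in 15.2% and 13.3% of germ-like cells against 2 of 29 Sertoli-like cells (6.90%, 0.846 to 22.8). The summed Cox6b2 level of the Sertoli-like cells was 43.7 CPM (16 UMIs, 25.0 to 70.9). By stage it was 40.9 CPM (8.43 to 119) at E12.5 and 44.4 CPM (23.6 to 75.9) at E13.5. Each of these intervals included the germ-like level of its own library, so the germ-like Cox6b2 levels were not separated from background. Cox8c was below the level, at 1.99 CPM (119 UMIs) and 4.56 CPM (267 UMIs), a ratio of 2.29 (1.83 to 2.86). Its share of subunit 8 UMIs was 0.272% and 0.848%, and it was seen in 3.14% and 6.76% of thinned cells (4.53% and 9.99% unthinned). At 2000 UMIs these shares were 0.481% and 1.22%, against 0 of 29 Sertoli-like cells, which allows up to 11.9%. Summed over all their UMIs the Sertoli-like cells had 1 Cox8c UMI, or 2.73 CPM (0.0691 to 15.2), so the germ-like levels were not separated from background. Cox7b2 took 1.08% (0.993 to 1.17) and 1.30% (1.19 to 1.41) of Cox7b UMIs, and the hypoxia-induced Ndufa4l2 took 0.496% and 0.535% of Ndufa4 UMIs. The UMIs of these families were therefore mostly those of the ubiquitous forms at both stages.

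Complex V had a nuclear sum of 1.10% of UMIs at E12.5 and 1.04% at E13.5 (ratio 0.948, 0.944 to 0.951), and 13 of 16 members at the level were lower. Atp5k, subunit e, which helps ATP synthase dimers form in the membrane, was at 174 CPM (10409 UMIs) and 108 CPM (6356 UMIs), a ratio of 0.622 (0.603 to 0.642). It had a UMI in 91.4% and 76.5% of thinned cells (95.6% and 86.2% unthinned). The 5 subunits of the F1 head, where ATP is made, summed to a ratio of 0.953 (0.947 to 0.959). Catalytic Atp5b was at 1866 and 1855 CPM, with a counting interval that included 1 (ratio 0.994, 0.986 to 1.002). Atp5e, the epsilon subunit, had the highest log2 ratio of the complex, 0.017, and its counting interval also included 1 (ratio 1.01, 0.994 to 1.03). The 3 genes for subunit c, whose ring turns with the protons and whose mature proteins are the same, summed to 3490 and 3491 CPM, a log2 ratio of 0.00039, with Atp5g1, Atp5g2 and Atp5g3 at 50.9%, 37.4% and 11.7% of their UMIs at E12.5 and 51.5%, 37.8% and 10.7% at E13.5.

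The mitochondrial genome encodes 7 complex I subunits, 1 of complex III, 3 of complex IV and 2 of complex V. Their sums had ratios of 1.21 (1.21 to 1.22), 1.34 (1.34 to 1.35), 1.16 (1.16 to 1.17) and 1.27 (1.26 to 1.27). All 13 genes were higher at E13.5 among germ-like cells, but mt-Co2 turned to a log2 ratio of -0.011 in cells under 5% mitochondrial UMIs and mt-Nd6 to -0.15 in cells of 20000 to 25000 UMIs. The counting interval of mt-Nd6, a complex I subunit and the 1 of the 13 on the minus strand, included 1 (5.88 and 6.48 CPM, ratio 1.10, 0.951 to 1.28).

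The genes were unequal in size of difference. mt-Cytb, the cytochrome b of complex III, was at 2821 and 3791 CPM, a log2 ratio of 0.43. mt-Atp6, the proton channel of the ATP synthase, was at 7438 and 9426 CPM (0.34), and mt-Co3, a core subunit of complex IV, at 10683 and 13248 CPM (0.31). In complex I, mt-Nd1 was at 2997 and 3781 CPM (0.34) and mt-Nd4 at 2170 and 2709 CPM (0.32). Those 5 genes had the highest ratios and summed to 1.26 (1.26 to 1.26), a set chosen after its values were seen and given with no test. The other 8 summed to 1.09 (1.08 to 1.09). Among them the catalytic mt-Co1 was at 6218 and 6826 CPM (0.13) and mt-Co2, which takes electrons from cytochrome c, at 4654 and 5003 CPM (0.10). The remaining complex I genes mt-Nd2, mt-Nd3, mt-Nd4l and mt-Nd5 had log2 ratios of 0.11, 0.20, 0.12 and 0.12, and mt-Atp8, of the ATP synthase, 0.11. Genes of complexes I and IV thus differed in size of ratio, as mt-Nd1 and mt-Nd2 or mt-Co3 and mt-Co1 did. In cells with at least 2000 genes and under 5% mitochondrial UMIs, mt-Co1 and mt-Nd2 had log2 ratios of 0.0092 and 0.0044, close to no difference, mt-Nd3, mt-Nd4l, mt-Nd5 and mt-Atp8 had 0.089, 0.034, 0.034 and 0.041, and the 5 genes of highest ratio had 0.18 to 0.29. mt-Atp6 shares 43 bases with mt-Atp8 and mt-Nd4 shares 7 with mt-Nd4l on the same strand, so their separate counts are uncertain. The differences of ratio within these pairs are therefore uncertain too.

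**Figure D3:**
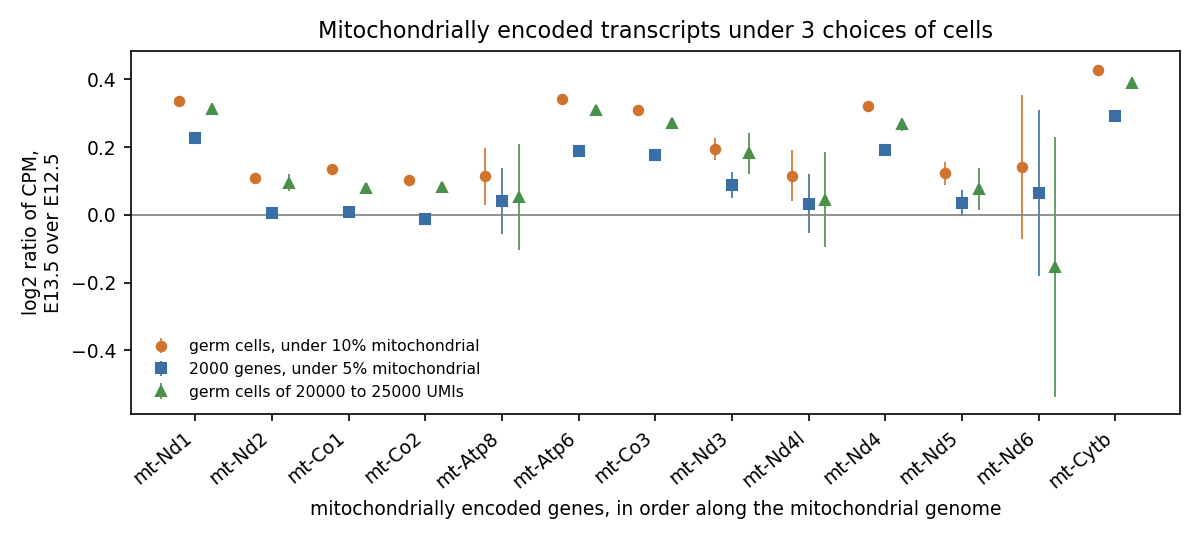
Points give the log2 ratio of CPM, E13.5 over E12.5, with counting intervals, for the 13 mitochondrially encoded genes in genome order in all germ-like cells (circles), in cells with at least 2000 genes and under 5% mitochondrial UMIs (squares) and in germ-like cells of 20000 to 25000 UMIs (triangles). mt-Cytb is highest in all 3, and mt-Co2 among the squares and mt-Nd6 among the triangles lie below 0.

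Ratios of nuclear members were also set against transcript length. Across 77 of the 78 members with a GENCODE M21 length, Spearman's rho of length and log2 ratio was 0.43, against 0.028 across 6701 genes. Genes are not independent replicates, and all points share the same libraries. The 39 members of at most 742 bases had a median log2 ratio of -0.18, the 38 longer ones -0.056, and all 334 genes of at most that length -0.086. The part of length in the lower nuclear sum was not tested.

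The per-cell levels were read after thinning each germ-like cell to 14500 UMIs, about the 10th percentile of depth at E13.5. This kept 2326 of the E12.5 cells, leaving out 169 shallower ones, and 2323 of the E13.5 cells, leaving out 229. The nuclear share had a median of 3.51% at E12.5 (10th to 90th percentile 3.17 to 3.88%) and 3.26% at E13.5 (2.89 to 3.64%). The mitochondrially encoded share had a median of 3.86% (3.10 to 4.87%) and 4.63% (3.57 to 6.02%). Distributions of the stages overlapped for both. The unthinned medians were 3.51% and 3.25% for nuclear and 3.86% and 4.68% for mitochondrially encoded members. Cells varied more in the mitochondrially encoded share, with a coefficient of variation of 19.3% and 20.9%, against 7.94% and 8.90% for the nuclear share, and a ratio of variance to mean of 21.2 and 29.9 against 3.22 and 3.75.

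**Figure D4:**
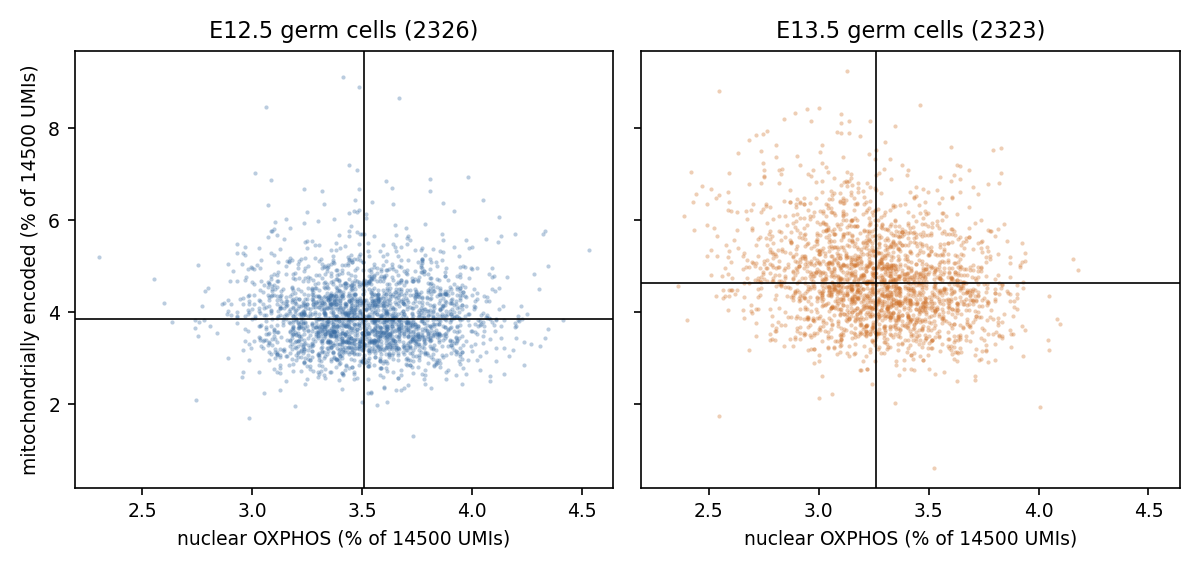
Each point is 1 germ-like cell thinned to 14500 UMIs, placed by the percent of its UMIs from nuclear members (x axis) and from mitochondrially encoded members (y axis), with lines at the medians. The cloud of the E13.5 library sits higher and further left than that of E12.5, and the clouds overlap.

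Within a library the shares from each genome had weak or negative correlations across cells. Spearman's rho of the nuclear and mitochondrially encoded shares was -0.026 across 2326 cells at E12.5 and -0.21 across 2323 cells at E13.5, given as descriptions because cells share a library and both shares have the same total. With the nuclear share taken of UMIs that are not mitochondrially encoded, rho was 0.062 at E12.5, where its sign changed, and -0.10 at E13.5. Mitochondrially encoded sums of different complexes went together, with a median rho of 0.61 and 0.70 over 6 pairs of complexes. For nuclear sums of complexes I, III, IV and V it was 0.24 and 0.29 over 6 pairs, and for a nuclear with a mitochondrially encoded sum -0.055 and -0.13 over 16 pairs. At E12.5 the ratio of variance to mean was 1.18 to 2.35 for these nuclear sums, nearer to counting error, and 2.81 to 12.0 for the mitochondrially encoded sums. The part of counting error in the lower nuclear rho was not tested. The mitochondrially encoded share was lower in cells with more UMIs before thinning (rho -0.28 and -0.37), and the nuclear share was higher in them (0.19 and 0.23). At E13.5 the nuclear share had a rho of 0.31 with the S phase list and 0.0038 with the G2/M list, and the mitochondrially encoded share -0.27 and -0.34. At E12.5 the nuclear values were -0.057 and -0.00055 and the mitochondrially encoded values 0.050 and -0.073. The part of depth and cell cycle in these relations was not tested.

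The stages fell into different clusters of germ-like cells, so cluster and stage overlap. At E12.5 the medians of the mitochondrially encoded share were 3.90% in cluster 1 (led by Hist1h1b and other histone genes), 3.84% in cluster 3 (led by Mogat2 and Pdlim4) and 3.83% in cluster 4 (led by Plk1). At E13.5 they were 4.45% in cluster 0 (led by Krt17 and Tuba3b), 5.08% in cluster 2 (led by Nanos2, a regulator of the male germline, and Egr4) and 4.45% in cluster 5 (led by Hist1h2ae and other histone genes). These 3 E13.5 medians were above the 3 of E12.5, with overlapping 10th to 90th percentiles. Sets of under 50 cells are left out of this comparison. Among them the E13.5 cells of clusters 1, 3 and 7 (2, 5 and 2 cells) had medians of 3.70%, 3.77% and 3.53%, below those of E12.5. The 1 E13.5 cell of cluster 4 was at 4.80%, above those of E12.5, and the 26 E12.5 cells of cluster 7 had a median of 3.85%. Nuclear medians were 3.57%, 3.39% and 3.58% at E12.5 and 3.24%, 3.19% and 3.41% at E13.5, so cluster 5 lay above cluster 3. Cluster 2 had a median of 19998 UMIs per thinned cell before thinning, the lowest of the 6, and 0.214% S phase UMIs, against 0.628% in cluster 5. The part of depth and cell cycle in its higher mitochondrially encoded share was not tested.

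**Figure D5:**
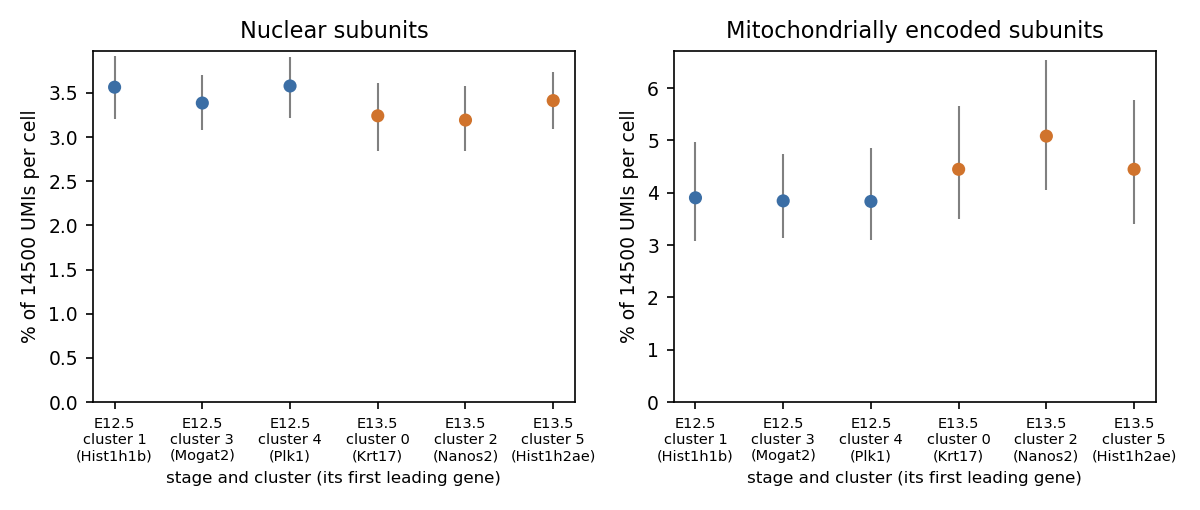
Points are medians over germ-like cells of each cluster, thinned to 14500 UMIs, and grey lines run from the 10th to the 90th percentile, for nuclear members at left and mitochondrially encoded members at right; blue is E12.5 and orange E13.5, and clusters of under 50 cells are not drawn. The Nanos2-led cluster 2 has the highest mitochondrially encoded median, 5.08%.

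Cox7a1 and Atp5k, with the lowest ratios of the nuclear members at the level, and Ndufv3, with the highest, were also read by cluster. Cox7a1 was at 35.3, 31.7 and 37.0 CPM in clusters 1, 3 and 4 of E12.5 and at 18.5, 11.2 and 23.3 CPM in clusters 0, 2 and 5 of E13.5. Atp5k was at 178, 161 and 181 CPM and then 104, 110 and 117 CPM. Ndufv3 was at 165, 158 and 173 CPM and then 194, 257 and 211 CPM. As these genes were named for their ratios and clusters follow the stages, their separation is a description. Other sums and genes overlapped: nuclear complex I was at 9949 CPM in cluster 3 of E12.5 and 10286 CPM in cluster 5 of E13.5, mt-Atp8 at 40.4 CPM in cluster 4 of E12.5 and 39.3 CPM in cluster 0 of E13.5, and mt-Nd6 at 6.90 CPM in cluster 3 of E12.5 and 5.93 CPM in cluster 0 of E13.5.

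Barcodes past the mitochondrial limit were few. With at least 3 germ markers, 37 at E12.5 and 81 at E13.5 held 26.6% and 26.5% mitochondrially encoded UMIs. Their nuclear members took 3.22% and 3.32% of the UMIs that are not mitochondrially encoded, against 3.67% and 3.43% in germ-like cells. Their median depth was 3947 and 3264 UMIs.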

How the data were processed

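The deposited tables hold raw UMI counts per gene and barcode, 1 table per stage. Per the submitters' processing notes the authors used Cell Ranger and the build mm10 (GRCm38); the annotation and Cell Ranger version are not given in the sources used here. Barcodes with at least 500 genes and under 10% mitochondrial UMIs were kept (2621 and 2670) and clustered in scanpy 1.11.5 (Leiden, leidenalg 0.10.2; 2000 variable genes, 30 components, 15 neighbours, resolution 0.5, no integration). Clusters were named from marker lists; a low-UMI cluster (120 and 92 barcodes) stayed unnamed, and Sertoli-like barcodes numbered 4 and 25. Within germ-like clusters 2 and 1 barcodes with 0.5% or more erythroid or macrophage marker UMIs were left out. Scrublet called 65 and 27 doublets, which were kept. The members and lists were chosen with earlier results of these data known.

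Germ-like counts were summed per library (59686665 and 58607152 UMIs) and given as CPM, not divided by length. Ratios have exact conditional binomial intervals, levels exact Poisson intervals and shares exact binomial intervals, computed with scipy 1.17.1. Of these, only the ratio intervals were checked on simulated counts, which had no spread beyond counting error. Genes under 3 UMIs in a library had no ratio. Genes named were all mitochondrially encoded members, for each complex the nuclear member with the most UMIs and those with the highest and lowest ratio, members past 1.5-fold, isoform families, members of 1 table only, and from context lists the gene with the most UMIs and those past 1.5-fold; Sdha, Sdhc, Cycs, Cyct and the genes marked in the text were named outside this rule after their values were seen, and the cell cycle lists are given by counts or sums alone. TMM factors came from edgeR 4.0.16. Near-identical pseudogenes can take or lend reads of many nuclear members, so their separate counts are uncertain.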

Additional observations from a re-analysis of the deposited data

How the results depend on the processing

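The nuclear sum was lower and the mitochondrially encoded sum higher at E13.5 under every alternative run. The log2 ratio of the nuclear sum, -0.11 as reported, was -0.10 with TMM factors, -0.096 with a denominator without mitochondrially encoded genes, -0.067 with one also without ribosomal protein and the 50 most abundant genes, -0.11 over all barcodes, -0.094 with at least 2000 genes and under 5% mitochondrial UMIs, -0.097 in cells of 20000 to 25000 UMIs, and -0.11 without Cox7a2l, Atp5s and Atp5sl, an alternative chosen after seeing the data. That of the mitochondrially encoded sum, 0.27 as reported, was in the same order 0.27, 0.28, 0.31, 0.31, 0.14 and 0.23, and was 0.29 with no limit on the mitochondrial share and 0.28 with equal weight per cell. The cause of these moves was not tested. Members past 1.5-fold numbered 2, but 1 at a minimum mean of 50 CPM, which leaves fewer genes, and 12 at 5/4-fold (4 higher, 8 lower). With the nuclear share of UMIs that are not mitochondrially encoded, the rho at E13.5, -0.21, was -0.10 and that at E12.5, -0.026, turned to 0.062. No paired analysis was possible because each stage was 1 library, and for the same reason no library could be left out. Depth limits mt-Nd6, Cox8c and other members of few UMIs.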

Other observations

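Genes that assemble or feed the respiratory complexes were read from lists of their own. Over all 6898 genes at a mean of 10 CPM or more, 47.3% were higher and 52.7% lower at E13.5 (median log2 ratio -0.021). Of 13 complex I assembly genes at a mean of 10 CPM or more, 9 were higher and 4 lower at E13.5, with a median log2 ratio of 0.13; Timmdc1, an assembly factor of the membrane arm, was at 35.4 and 53.6 CPM, Ndufaf3 at 22.5 and 14.7 CPM, and Ndufaf4, with the most UMIs of the list, at 129 and 116 CPM. Past 1.5-fold, 1 was higher and 1 lower, against 7.12% and 8.58% of all genes. Of 5 complex III assembly genes 4 were lower (median -0.18), with Uqcc1 at 16.4 and 10.5 CPM and Uqcc2 at 341 and 242 CPM. Of 19 complex IV assembly genes 8 were higher and 11 lower (median -0.017). The copper chaperone Cox17 was at 58.8 and 38.7 CPM and Cox20 at 19.9 and 12.1 CPM. The copper protein Sco2 was at 13.1 and 21.6 CPM, and Cox14, with the most UMIs, at 126 and 129 CPM. At least 1.5-fold, 0 complex III assembly genes were higher and 1 lower. Of those for complex IV 1 was higher and 2 lower, against 7.12% and 8.58% of all genes. Sdhaf4, a complex II assembly factor, was at 161 and 180.2 CPM, Atpif1, an inhibitor of the ATP synthase, at 390.3 and 387 CPM, and Pprc1, a coactivator of mitochondrial biogenesis, at 72.1 and 69.0 CPM, each with the most UMIs of its list. Cyc1, the cytochrome c1 subunit of complex III that the naming rule leaves out, was at 452 and 377 CPM, Cycs, the somatic cytochrome c, at 394 and 330 CPM, and Cyct, its testis form, at 209 and 148 CPM.

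Mitochondrial ribosomal proteins, which translate the mitochondrially encoded subunits, had a median log2 ratio of -0.10, with 22 higher and 54 lower of 76; 1 was at least 1.5-fold higher (Mrps6, 55.1 and 89.9 CPM) and 4 lower (Mrpl18, Mrpl27, Mrpl33 and Mrps28), against 7.12% higher and 8.58% lower of all genes. Mrpl23, with the most UMIs of that list, was at 535 and 689 CPM. Of 15 genes for expression of the mitochondrial genome 8 were higher and 7 lower (median 0.0027), and Polg, the mitochondrial DNA polymerase, was at 55.8 and 34.98 CPM and Ssbp1, which binds single-stranded mitochondrial DNA, at 302 and 278 CPM. Of 17 genes of the TCA cycle list 4 were higher and 13 lower (median -0.13), against 47.3% and 52.7% of all genes. Malate dehydrogenase Mdh2 was at 620 and 579 CPM. Idh2, the mitochondrial NADP-dependent isocitrate dehydrogenase, was at 84.6 and 35.3 CPM, a ratio of 0.417 (0.396 to 0.439). Pdha1, of pyruvate dehydrogenase, was at 66.5 and 105 CPM, a ratio of 1.57 (1.51 to 1.64). At least 1.5-fold, 1 gene of the TCA cycle list was higher and 1 lower. Of the list for expression of the mitochondrial genome 0 were higher and 1 lower, against 7.12% and 8.58% of all genes. The S phase list had 38 of 41 genes lower (median -0.48) and the G2/M list 38 of 50 (median -0.20), against 52.7% of all genes. These are values of 1 library per stage, with no test.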
